A study of Mus musculus with 4 samples.

Results

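The Fos and Jun proteins are the core of AP-1, and their 9 genes examined here were Fos, Fosb, Fosl1, Fosl2, Jun, Junb, Jund, Atf3 and Batf. All probes that the array's design gives under these gene names were taken, whatever their values. Of the 9 genes, 8 stood under their own names. The array lists Jund under the older name Jund1, and its probe was matched through the accession in the design. In all, 11 probes of 41174 on the array represented the 9 genes, in 29 of the 43379 gene spots of each array. Fos and Jun had 1 probe in 10 spots each, Fosl2 and Junb had 2 probes each, and the other genes had 1 probe in 1 spot.

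AP-1 is a transcription factor built from 2-part complexes, in which a leucine zipper holds the partners together and a basic region binds DNA. Jun proteins pair with each other or with Fos, Atf and Batf proteins, whereas Fos proteins need a Jun partner to bind DNA. Several of these genes are immediate-early genes, transcribed within minutes of a stimulus through factors that are already present. In mast cells AP-1 is known for its part in cytokine transcription after activation.

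Mouse mucosal mast cells, differentiated in vitro, were stimulated with IL-18, a cytokine of the IL-1 family, or were left unstimulated. There were 4 biological replicates, and each was 1 array of 2 colours that carried the stimulated sample in Cy5 and its own unstimulated control in Cy3. The dyes were never exchanged, so a dye effect of a probe and the effect of IL-18 cannot be told apart. The sources used here do not state the mouse strain or the dose and duration of IL-18, and the control is only called unstimulated. All RNA came from bulk cultures, in which fewer cells of a type and less RNA per cell cannot be told apart.

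Promoter sequences were taken from RefSeq (mouse assembly GRCm38.p6), which held 8 of the 9 genes. The 250 bases before the annotated start are printed for 4 of them, Fos and Junb because they rose by more than 2-fold, Fosb because it shares motifs with Fos, and Jund because it is the Jun gene that missed the threshold of the test. All are written 5′ to 3′ on the strand of the gene. Capitals mark matches to TGACG (the left part of the cyclic AMP response element), to the NF-kB consensus and to TATAAA.
Fos (chr12:85473640-85473889, + strand): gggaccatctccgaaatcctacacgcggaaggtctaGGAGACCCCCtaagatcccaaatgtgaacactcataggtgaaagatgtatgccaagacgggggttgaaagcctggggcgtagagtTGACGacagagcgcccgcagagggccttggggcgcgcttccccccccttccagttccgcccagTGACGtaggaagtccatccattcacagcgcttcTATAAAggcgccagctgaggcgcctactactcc
Fosb (chr7:19310046-19310295, - strand): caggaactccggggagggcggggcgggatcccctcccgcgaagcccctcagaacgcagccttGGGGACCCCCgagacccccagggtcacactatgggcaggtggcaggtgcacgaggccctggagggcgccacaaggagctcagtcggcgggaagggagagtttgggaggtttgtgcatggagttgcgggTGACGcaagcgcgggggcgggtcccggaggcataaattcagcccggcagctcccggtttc
Junb (chr8:84978749-84978998, - strand): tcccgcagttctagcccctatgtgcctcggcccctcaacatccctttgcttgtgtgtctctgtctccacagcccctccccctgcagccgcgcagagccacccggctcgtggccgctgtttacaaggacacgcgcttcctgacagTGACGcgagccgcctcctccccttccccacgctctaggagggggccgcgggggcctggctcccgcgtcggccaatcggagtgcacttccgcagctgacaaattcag
Jund (chr8:70697489-70697738, + strand): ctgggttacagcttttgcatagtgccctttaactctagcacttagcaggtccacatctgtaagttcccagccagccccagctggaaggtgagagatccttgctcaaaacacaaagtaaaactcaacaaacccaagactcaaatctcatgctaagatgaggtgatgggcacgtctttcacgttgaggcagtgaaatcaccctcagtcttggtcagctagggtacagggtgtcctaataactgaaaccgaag

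The motif TGACG, searched on both strands, lay in 5 of the 8 promoters (Fos, Fosb, Junb, Atf3 and Batf) and in 17.8% of 32851 mouse promoters of the same length. Fos held it at bases -129 and -66 counted from the gene's start, Fosb at -60, Junb at -106 and Batf at -98, and Atf3 held it at -7 on the other strand. The NF-kB consensus lay in 3 of the 8 (Fos, Fosb and Fosl2) and in 3.90% of all promoters. Only Fos among the 8 held TATAAA, which lay at -33 and was found in 12.4% of all promoters. The Jund and Jun windows held none of the motifs searched. The whole cyclic AMP response element TGACGTCA, which contains TGACG, lay in none of the 8 (1.55% of all promoters), nor did the AP-1 site TGANTCA (6.75%) or the CArG box of serum response factor (1.47%). These matches describe letters in a window and show no binding. Bases further upstream and variant spellings of these motifs were not searched, so a motif missing here may lie elsewhere in the promoter.

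A log2 ratio here is the log2 of the stimulated (Cy5) over the unstimulated (Cy3) intensity on 1 array, after background correction with an offset of 50 added to each channel and loess normalization for brightness. The offset pulls the ratios of dim probes towards 0. All 116 spots of the AP-1 genes over the 4 arrays were unsaturated and carried no outlier flag. Every AP-1 probe was well above background in both channels on all 4 arrays, so all 11 were among the 24104 probes tested. Of the 11, 8 were called higher in stimulated cells (limma, adjusted p under 0.05), against 24.5% of all tested probes, and 1 was called lower, against 23.9%. In either direction 48.4% of all tested probes were called. The median size of a called log2 ratio among all probes was 0.26, so a call alone was common and often small. Past a 2-fold rise as well as the test, the share of all tested probes was 0.183% (44 probes), and 3 of the 11 AP-1 probes were among them, the Fos probe and both Junb probes.

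**Figure D1:**
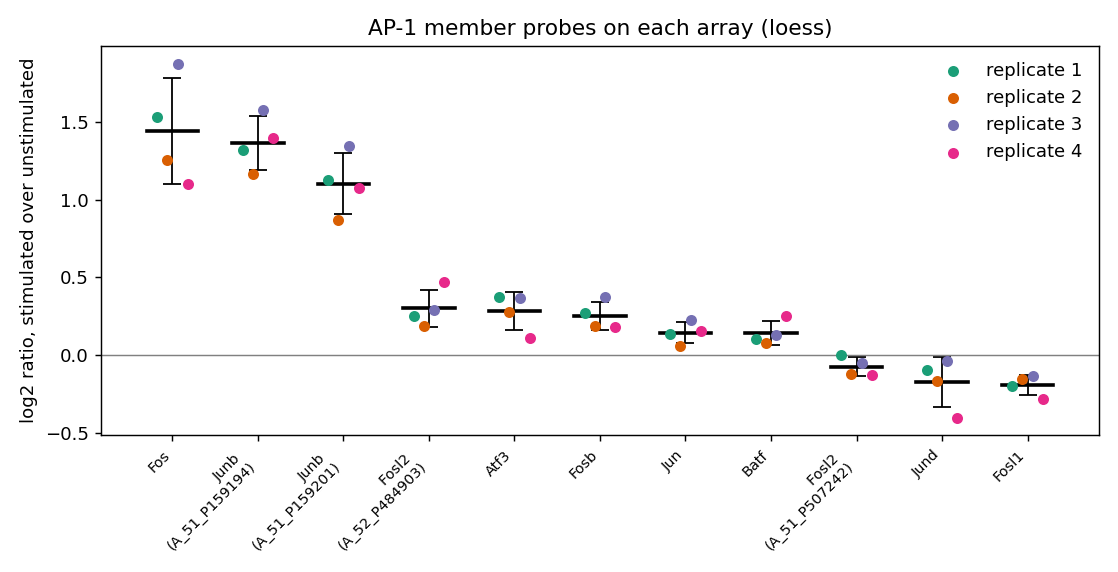
Log2 ratio of stimulated over unstimulated cells (vertical axis) for each AP-1 probe (horizontal axis) on each of 4 arrays, with the mean as a line and the SD as a bar. The Fos probe and the 2 Junb probes lie above 0.86 on every array, and the other 8 probes lie below 0.47.

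Fos encodes c-Fos, the best known immediate-early partner of the Jun proteins, and with the loess normalization used here it and Junb were the genes of the 9 that rose by more than 2-fold. The uncorrected spot intensity of Fos, averaged over its 10 spots, was 1328, 1118, 1369 and 911 in stimulated cells of replicates 1 to 4, against 261, 298, 218 and 249 in unstimulated cells. After normalization its log2 intensity was 9.78, 9.73, 10.16 and 9.49 in stimulated cells, against 8.25, 8.48, 8.28 and 8.39 in unstimulated cells. Every stimulated sample lay above every unstimulated one. The log2 ratio of Fos was 1.44 ± 0.34 (SD, n = 4), a 2.72-fold rise, with an adjusted p of 2.47e-04 in limma.

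The log2 ratio of Fos was 1.53, 1.26, 1.87 and 1.10 in replicates 1 to 4, all well above 0. Within an array the SD of its 10 spots was 0.040 to 0.047, and between arrays the SD was 0.34, which also holds differences in labelling and normalization. The repeated spots of Jun had an SD of 0.025 to 0.053 within an array and of 0.068 between arrays.

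**Figure D2:**
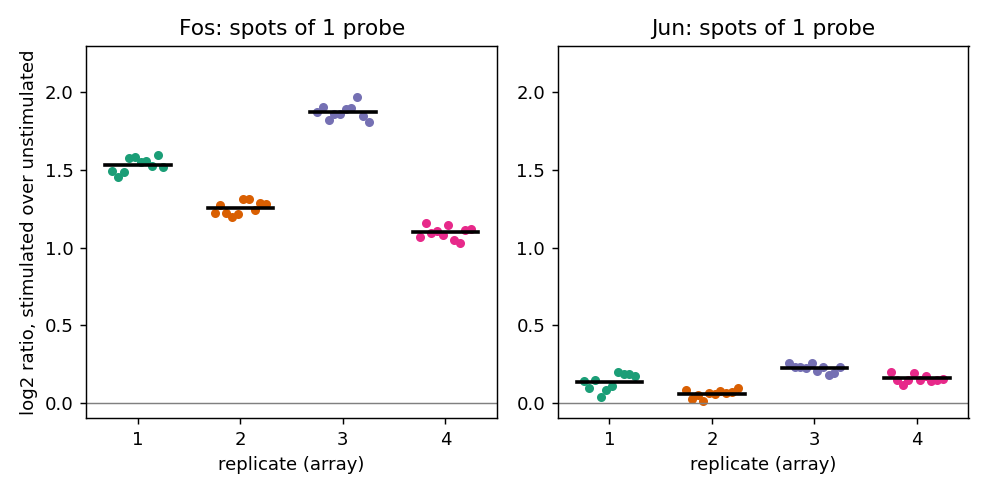
Log2 ratio of stimulated over unstimulated cells (vertical axis) in each of the 10 spots of the Fos probe and of the Jun probe, by replicate (horizontal axis), with the mean of each array as a line. The spots of Fos form 4 separate levels, the highest in replicate 3 and the lowest in replicate 4, and those of Jun lie between 0.012 and 0.26.

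Fosb encodes FosB, an immediate-early relative of c-Fos. Its normalised log2 intensity was 7.25, 7.48, 7.34 and 7.23 in stimulated cells, against 6.99, 7.29, 6.97 and 7.05 in unstimulated cells. Each stimulated sample was above its own control, but the 2 groups overlapped through replicate 2. Fosb had a log2 ratio of 0.25 ± 0.09 (SD, n = 4), a 1.19-fold rise, with an adjusted p of 0.00513 in limma. Fosb is dim, and its ratio was 0.41 with an offset of 0 and 0.50 with the scanner software's own ratio.

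Fosl1 and Fosl2 encode the Fos-related antigens, which lack the strong activation domain of c-Fos and FosB. Fosl1 was the only AP-1 probe called lower. Its normalised log2 intensity was 7.98, 7.99, 8.10 and 8.05 in stimulated cells, against 8.18, 8.15, 8.24 and 8.34 in unstimulated cells, with no overlap between the groups. The log2 ratio of Fosl1 was -0.19 ± 0.07 (SD, n = 4, adjusted p = 0.00977 in limma).

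The 2 probes of Fosl2 gave different results. The brighter one, A_52_P484903, had normalised log2 intensities of 9.48, 9.41, 9.49 and 9.47 in stimulated cells, against 9.23, 9.23, 9.20 and 9.01 in unstimulated cells, and the groups did not overlap. The log2 ratio of this Fosl2 probe was 0.30 ± 0.12 (SD, n = 4), a 1.23-fold rise, with an adjusted p of 0.00427 in limma. The dimmer probe, A_51_P507242, was brighter than only 18.9% of tested probes and had a log2 ratio of -0.08 ± 0.06 (SD, n = 4, adjusted p = 0.180 in limma). The sequences of these probes were not used here, so which part of the Fosl2 transcript each one reads was not examined.

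Junb encodes JunB, a Jun protein that is itself an immediate-early product and a weaker activator than c-Jun. Its probe A_51_P159194 had normalised log2 intensities of 16.68, 16.54, 16.67 and 16.57 in stimulated cells, against 15.36, 15.37, 15.09 and 15.17 in unstimulated cells. Its probe A_51_P159201 had 16.65, 16.64, 16.65 and 16.51 in stimulated cells, against 15.53, 15.77, 15.30 and 15.43 in unstimulated cells. Neither probe's groups overlapped. The log2 ratio of Junb was 1.36 ± 0.17 on A_51_P159194 (SD, n = 4, 2.57-fold, adjusted p = 7.46e-05 in limma) and 1.10 ± 0.20 on A_51_P159201 (SD, n = 4, 2.15-fold, adjusted p = 1.49e-04 in limma). On each of the 4 arrays the ratio of A_51_P159194 was the higher of the pair, by 0.26 ± 0.060 (SD) on the log2 scale.

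Jun encodes c-Jun, the activator on which JNK kinases act. The normalised log2 intensity of Jun, over its 10 spots, was 12.12, 12.06, 12.35 and 12.07 in stimulated cells, against 11.99, 12.01, 12.12 and 11.91 in unstimulated cells. The groups overlapped, although Jun was above its own control on all 4 arrays. For Jun the log2 ratio was 0.14 ± 0.07 (SD, n = 4), a 1.10-fold rise with an adjusted p of 0.0315 in limma. This call was lost on leaving out replicate 1, 2 or 3 (adjusted p = 0.0773, 0.0634 and 0.132 in limma).

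Jund encodes JunD, the Jun protein that many resting cells make steadily. Its normalised log2 intensity was 15.90, 15.74, 15.79 and 15.61 in stimulated cells, against 15.99, 15.91, 15.83 and 16.02 in unstimulated cells, and the groups overlapped. All 4 ratios of Jund were below 0, and their mean of -0.18 ± 0.16 (SD, n = 4) missed the threshold, with an adjusted p of 0.0560 in limma. The largest difference was in replicate 4 (-0.40), and the smallest in replicate 3 (-0.04). The value of Jund lay close to the threshold, and 7 of 18 other ways of processing put its fall past it. Among them were the software's own ratio at -0.47 (adjusted p = 0.00548 in limma) and the nearly equal ratio of the deposited series. Median centring turned Jund higher, at 1.09 (adjusted p = 3.65e-08 in limma).

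Atf3 encodes a stress-induced protein that pairs with Jun proteins and often represses transcription. Its normalised log2 intensity was 9.10, 9.04, 9.16 and 9.00 in stimulated cells, against 8.72, 8.76, 8.80 and 8.89 in unstimulated cells, with no overlap. Atf3 had a log2 ratio of 0.28 ± 0.12 (SD, n = 4), a 1.22-fold rise with an adjusted p of 0.00541 in limma. Batf encodes a small partner of Jun proteins, known from T and B cells, that has no activation domain of its own. Its normalised log2 intensity was 13.01, 12.97, 12.89 and 13.05 in stimulated cells, against 12.91, 12.89, 12.77 and 12.80 in unstimulated cells, and the groups overlapped. Batf had a log2 ratio of 0.14 ± 0.08 (SD, n = 4), a 1.10-fold rise with an adjusted p of 0.0387 in limma. Leaving out any 1 replicate ended the call of Batf (adjusted p = 0.0581 to 0.104 in limma).

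**Figure D3:**
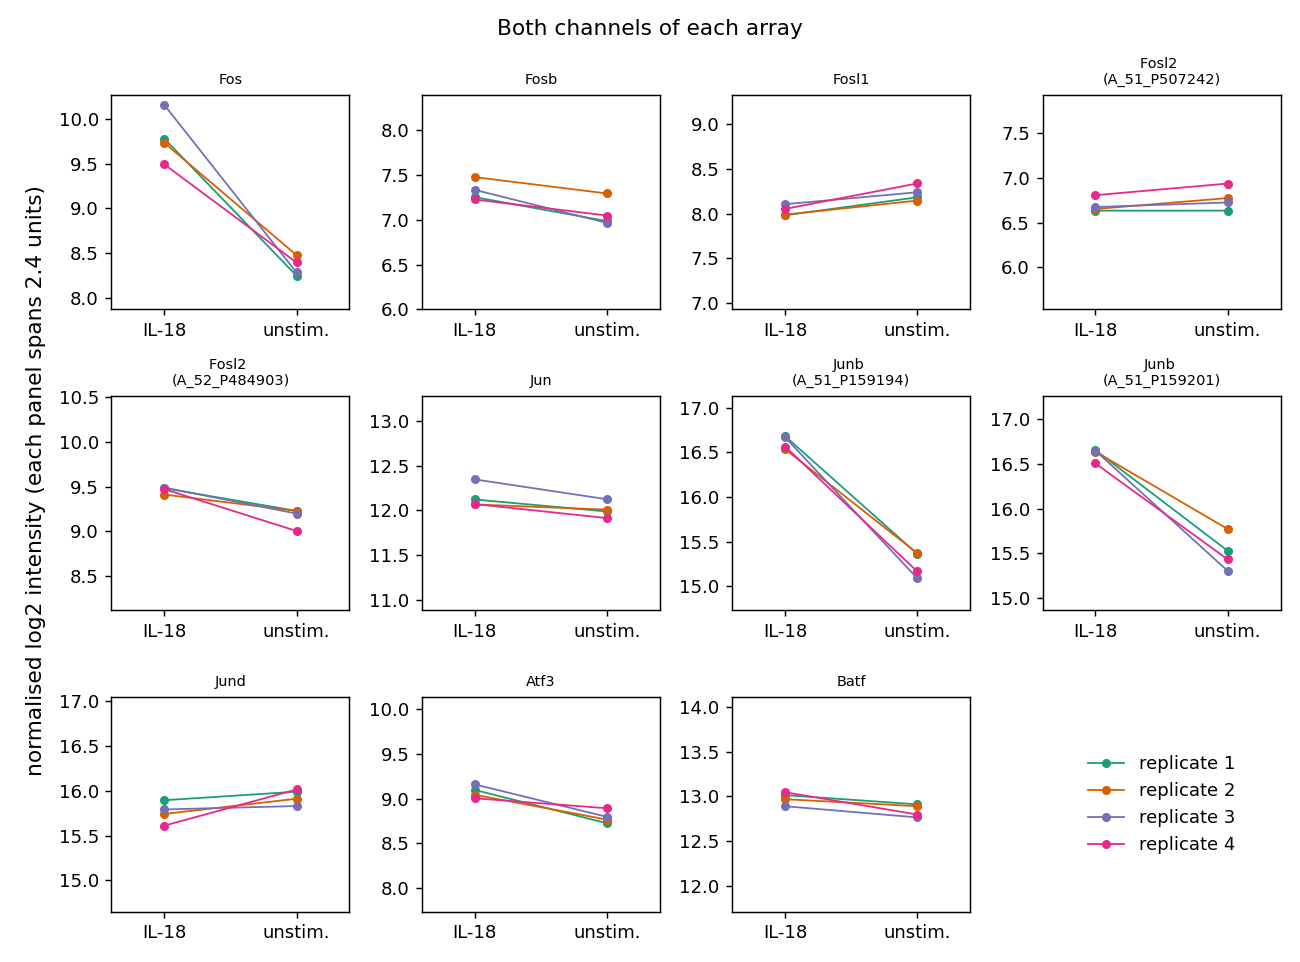
Normalised log2 intensity (vertical axis) of each AP-1 probe in stimulated cells and in unstimulated cells (horizontal axis), with a line for each replicate. Every panel spans the same range of log2 units. The lines of Fos and of both Junb probes drop steeply towards the unstimulated side, and those of Fosl1 and Jund run slightly upward.

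In stimulated cells the normalised intensities of 5 AP-1 probes lay wholly above those of unstimulated cells (Fos, both Junb probes, the brighter Fosl2 probe and Atf3), which 16.4% of tested probes with 4 values also did. For 1 probe, Fosl1, they lay wholly below, as for 19.2% of those probes. The same 8 probes, those called higher, had ratios above 0 on 4 of 4 arrays, against 32.7% of tested probes. The other 3, Fosl1, Jund and the dimmer Fosl2 probe, had ratios below 0 on 4 of 4 arrays, against 29.6%. For the dimmer Fosl2 probe in replicate 1 that ratio was within 0.001 of 0.

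Ranked by ratio, the 11 probes fell into a pair of well separated sets. On replicates 1 to 4 the lowest ratio among the Fos and Junb probes was 1.13, 0.87, 1.34 and 1.07, while the highest ratio among all other AP-1 probes was 0.37, 0.28, 0.37 and 0.47. Fos and the higher Junb probe did not differ beyond their spread, with a difference of 0.08 ± 0.26 (SD, n = 4). Neither did the brighter Fosl2 probe and Atf3 (0.02 ± 0.23), Atf3 and Fosb (0.03 ± 0.083), Jun and Batf (0.004 ± 0.080), or Jund and Fosl1 (0.02 ± 0.11). Fosb was above Jun on all 4 arrays, by 0.11 ± 0.057.

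The ratio on these arrays changed with brightness, and this bears most on Junb and Jund, whose probes were brighter than 99% of tested probes. When each array was only centred on its median, the median ratio of all tested probes climbed with intensity. It was 1.50 among the 140 probes of log2 intensity 15.5 to 16, 1.75 among the 98 probes of 16 to 16.5 and 2.01 among the 46 probes of 16.5 to 17. Loess, which removes such a trend within an array, left medians of 0.25, 0.44 and 0.64 in these bins. The higher Junb probe, at 1.36, lay above the 95th percentile of its bin after loess (0.74), while the other, at 1.10, lay just below that of its bin (1.12). Jund, at -0.18, lay below its bin's median. Fos, at a middle intensity, stood in a bin with a median of 0.02 and a 95th percentile of 0.40.

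Median centring in place of loess moved every AP-1 ratio upward, and moved the median of all tested probes from 0.016 under loess to 0.43. With centring Fos had a log2 ratio of 2.00 and the Junb probes had 2.64 and 2.39. Jun (0.97), Batf (1.06), the brighter Fosl2 probe (0.88), Atf3 (0.82) and Fosb (0.48) also stood higher than with loess. Fosl1 (0.23) and Jund (1.09) turned to the other direction and were called higher. Fosl1 and Jund then lay below the median of all probes at their brightness, as they did after loess. Whether the trend with brightness comes from the dyes or from the cells was not tested, and the share of calls in each direction over all probes rests on this choice, with 17036 higher and 1369 lower after centring.

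**Figure D4:**
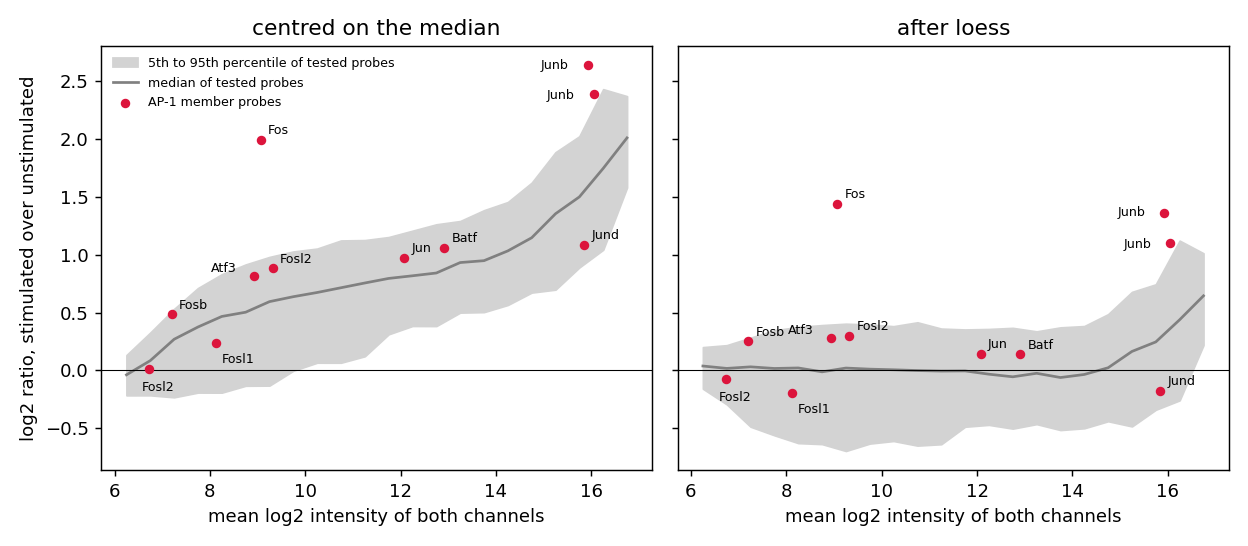
Log2 ratio of stimulated over unstimulated cells (vertical axis) against the mean log2 intensity of both channels (horizontal axis), after median centring in the left panel and after loess in the right panel. The grey band holds the 5th to 95th percentile of all tested probes in bins of intensity, the line is their median, and AP-1 probes are red points. The Fos probe and the higher Junb probe stand above the band in both panels, and Jund stands below the line in both.

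The arrays came from 2 slides, replicates 1 and 2 from slide 1 and replicates 3 and 4 from slide 2. Fos had a mean log2 ratio of 1.40 on slide 1 and 1.49 on slide 2. Junb probe A_51_P159194 had 1.24 on slide 1 and 1.49 on slide 2, and A_51_P159201 had 1.00 on slide 1 and 1.21 on slide 2. Jund had -0.13 on slide 1 and -0.22 on slide 2, and Fosl1 -0.18 and -0.21. No AP-1 probe passed a test of the difference between slides in limma, in which the lowest adjusted p was 0.685, and each kept its direction on both slides. Each slide's mean was also tested against 0, with the variance fitted over the arrays of both slides. Within slide 1, 4 AP-1 probes were called higher by that test (Fos, both Junb probes and Atf3) and 0 lower in limma. At an unadjusted p under 0.05 in limma, 6 were higher and 1 lower.

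Genes around AP-1 were counted in 6 lists with 82 genes, of which 74 were tested. Each gene was read from its brightest tested probe. Of the 74, 16 were called higher and 22 lower, and 36 passed in neither direction, against 26.7% higher and 20.5% lower of all 16970 tested genes. By the same reading, 7 of the 9 AP-1 genes were called higher and 1 lower. The median log2 ratio was 0.25 over the 9 AP-1 genes and 0.03 over all tested genes. The directions in these lists depend on the normalization, since with median centring 64 of the 74 were called higher and 1 lower.

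Among other bZIP partners 2 of 14 genes were called higher and 5 lower, and the list's median was -0.06. Maff, a small Maf protein without an activation domain, rose by 0.48 ± 0.09 (SD, n = 4, adjusted p = 4.39e-04 in limma). Mafg fell by 0.44 ± 0.14 and Mafk fell by 0.43 ± 0.17, both small Maf proteins too, with adjusted p of 0.00141 and 0.00206 in limma. With median centring Mafg (0.31) and Mafk (0.34) had ratios above 0.

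Among the kinases that act upstream of AP-1, 1 of 19 was called higher and 7 lower, with a median of -0.07. Mapkapk2, which encodes the kinase MK2 downstream of p38, fell by 0.85 ± 0.27 (adjusted p = 6.91e-04 in limma), and its other probe had a ratio of -1.14. Map3k5, the kinase ASK1, fell by 0.51 ± 0.13 (adjusted p = 6.66e-04 in limma). Map3k8, the kinase TPL2 that leads to ERK in inflammatory signalling, was the 1 that rose, with a ratio of 0.46 ± 0.08 (adjusted p = 4.50e-04 in limma) and of 1.20 by the scanner software. With median centring Mapkapk2 stood at -0.03 and Map3k5 at 0.11.

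Factors known to act on the Fos and Jun promoters gave 3 higher and 4 lower of 9 tested genes. Stat3 fell by 0.55 ± 0.33 (adjusted p = 0.00662 in limma), but its other probe stood at 0.10, and with median centring the probe that fell stood at 0.36. Mef2a rose by 0.51 ± 0.08 (adjusted p = 3.32e-04 in limma), while its lowest probe stood at -0.23. Mrtfa, a coactivator of serum response factor, fell by 0.30 ± 0.08 (adjusted p = 0.00209 in limma), and with median centring it stood at -0.13 and was not called (adjusted p = 0.0560).

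Genes that govern the turnover of AP-1 mRNA and protein gave 1 higher and 4 lower of 10. Gsk3b, the kinase that marks c-Jun for breakdown, fell by 0.69 ± 0.19 (adjusted p = 5.62e-04 in limma), with its other probe at -0.39. Zfp36l2 fell by 0.41 ± 0.06 (adjusted p = 5.07e-04 in limma) and stood at 0.03 with median centring. Zfp36, which encodes tristetraprolin, rose by 0.29 ± 0.11 (adjusted p = 0.00353 in limma), but its other probe, at 0.13, was not called. Both Zfp36 and Zfp36l2 encode proteins that bind AU-rich mRNAs and speed their decay. Factors that bind DNA together with AP-1 gave 2 higher and 1 lower of 8 tested genes. Nfatc3 fell by 0.37 ± 0.20 (adjusted p = 0.00681 in limma), with 0.32 under median centring, and its other probe, at -0.15, was not called. Ets1 rose by 0.31 ± 0.11 on its brightest probe (adjusted p = 0.00315 in limma), but its 4 probes reached down to -0.69. Ets2 rose by 0.20 ± 0.16 (adjusted p = 0.0348 in limma) and was above 0 on 3 of 4 arrays. Ets2 lost its call on leaving out replicate 1, 2 or 3 (adjusted p = 0.104, 0.119 and 0.142 in limma).

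Textbook targets of AP-1 gave 7 higher and 2 lower of 15 tested genes, with a median of 0.19. Tnf rose by 0.87 ± 0.17 (adjusted p = 2.07e-04 in limma). Csf2, which encodes GM-CSF, was well above background on 4 arrays in stimulated cells and not well above background on any array in unstimulated cells. Its rise was therefore at least 1.67-fold, the mean normalised intensity of stimulated cells over the floor set by the lowest probes above background or, where higher, its own signal in unstimulated cells (adjusted p = 2.79e-04 in limma). The measured log2 ratio of Csf2 was 0.78, against 1.82 with an offset of 0 and 3.17 with the scanner software, which also normalizes differently. Il6 rose by 0.66 ± 0.12 (adjusted p = 2.72e-04 in limma).

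The gene whose 4 ratios lay nearest to those of Fos was Nr4a1, an immediate-early nuclear receptor, at a distance of 0.34 log2 units summed over the 4 arrays as a Euclidean distance. Nr4a1 had ratios of 1.42, 1.02, 1.67 and 1.04. Next came Btg2, an immediate-early antiproliferative gene (0.39), then Sema6d (0.50), Rpl12 (0.61) and Fas (0.63). For Fosl1 the nearest were Atp8b4, Dnajc17, Lztr1, Rbm42 and Septin1, at 0.017 to 0.032. Many genes have small ratios, so near neighbours of Fosl1 are common.

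Mast cell markers were bright and tested in 8 of 8 genes, of which 5 were called higher and 3 passed in neither direction in limma, against 26.7% higher of all tested genes. Mcpt1 (0.73), Cpa3 (0.51) and Mcpt2 (0.20), called higher, stood in the bin of intensity where the median of all probes was 0.64 after loess. Mcpt2 had a ratio of -0.14 by the scanner software. Fcer1a (0.86) was brighter still, at a mean log2 intensity of 17.02. Gata2 (0.34) had values on 3 arrays, and its other probe was called lower at -0.27. Summed over the markers with 4 values, their normalised intensity was 591861 to 645033 in stimulated cells, against 400895 to 451447 in unstimulated cells. Macrophage markers were tested in 5 of 5 genes, 1 higher and 1 lower. Their sums were 79019 to 86463 in stimulated cells, against 73171 to 77480 in unstimulated cells, and most of it was Lyz2. Lyz2 (0.12) was not called on the probe summed, and its other probe was called lower at -0.42. The sums for T cell, B cell, neutrophil and fibroblast markers lay between 237 and 726 in every sample, and Cd8a, Cd79a, Pax5, Elane, Camp, Col1a1 and Dcn did not pass the filter on dim probes. Erythroid and megakaryocyte markers summed to 3844 to 4340 in stimulated cells, against 12222 to 19235 in unstimulated cells, where Itga2b had a log2 ratio of -1.81. Eosinophil and basophil markers summed to 987 to 1960 in stimulated cells, against 729 to 1515 in unstimulated cells. Most of it was Mcpt8 (0.40), while Siglecf stood at -0.09, and Epx, Il5ra and Prg2 did not pass the filter. Dendritic cell markers summed to 2106 to 2614 in stimulated cells, against 2508 to 2865 in unstimulated cells. Most of it was Itgax (-0.25), whose other probe was called higher at 0.38. H2-Aa (0.06) and Cd74 (-0.06) were not called, and Ccr7 and Flt3 did not pass the filter. The part of these cell markers in the AP-1 ratios was not tested.

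Of all gene spots, 57.9% to 62.7% were well above background in stimulated cells, against 49.9% to 54.0% in unstimulated cells, and no spot was saturated. The log2 ratios of the arrays correlated with each other at r = 0.742 to 0.904 across tested probes, which are not independent replicates. The number of arrays limits the precision. Of simulated probes changed by 0.25, 30% were called, and of those changed by 1, 98%. In that simulation 23904 of 24104 probes were unchanged, whereas 48.4% of the real tested probes were called. The adjusted p depends on how many probes change, so these shares do not give the share of real changes found.

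**Figure D5:**
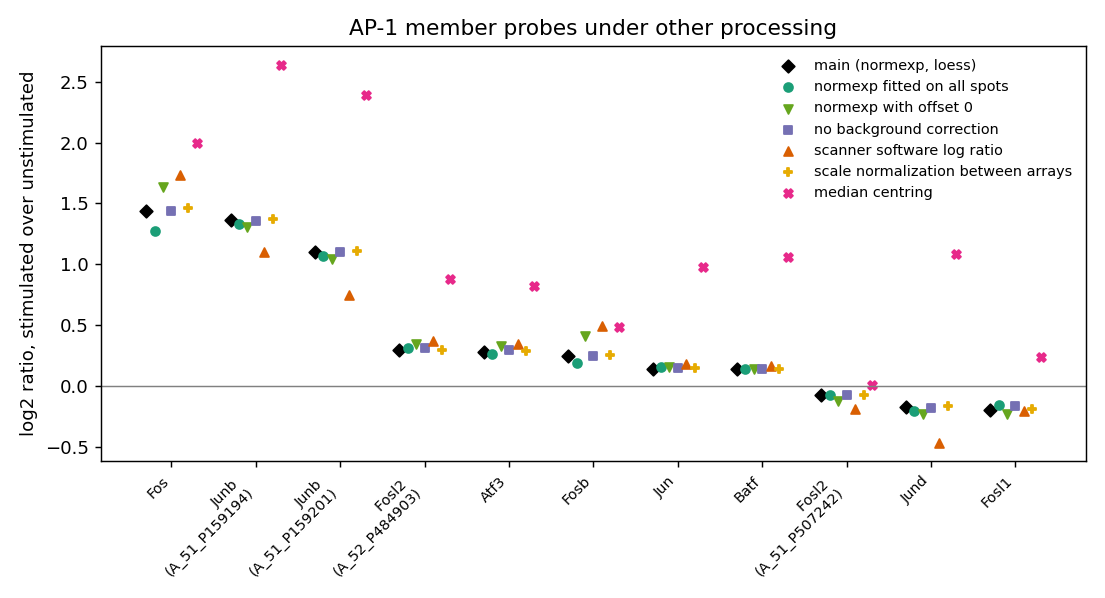
Log2 ratio of stimulated over unstimulated cells (vertical axis) of each AP-1 probe (horizontal axis) under the reported processing and 6 others. The Fos probe and the 2 Junb probes lie above 0.74 in all, Jund and Fosl1 lie below 0 except after median centring, and the dimmer Fosl2 probe lies between -0.19 and 0.01.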

How the data were processed

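The intensity columns used are spot means and local background medians in Cy5 and Cy3, uncorrected, which the authors deposited from Agilent Feature Extraction 9.1 (per the file headers and the submitters' processing notes). The deposited log10 ratios, in the scanner files and in a table of the series that differs from them by at most 0.00496, were made by background subtraction and dye normalization, per the file headers, and served as alternatives.

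From the intensities, background was corrected with normexp (offset 50), and log2 ratios of Cy5 over Cy3 were normalized by loess within arrays. In replicate 1, 7 spots with local backgrounds up to 32441.5 (Cy3) distorted a normexp fit on all spots: its fitted background mean in Cy3 was -381, against 29.4 without only those 7 spots and 29.6 without all flagged backgrounds. The normexp parameters were therefore fitted on spots whose local background carried no outlier flag. This was chosen after seeing the data, and the fit on all spots is an added alternative. Control spots were dropped, flagged spots set to missing, and spots of 1 probe averaged.

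Probes well above background in 1 channel on 3 of 4 arrays were tested against 0 with limma 3.58.1 in R 4.3.3. The test is two-sided, and Benjamini-Hochberg adjusted p-values over the 24104 probes were read at 0.05. The ratio within an array carries the pairing of each stimulated sample with its own control, which the labels state. With 4 arrays the smallest p of an exact sign-flip test is 0.125, and none was run. Replicates are called biological in the labels.

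The AP-1 members, lists and tests were chosen with earlier results of these data known. Genes named are all AP-1 probes, up to 3 called genes of each list with the largest ratios, and the 5 genes nearest to the largest rise (Fos) and fall (Fosl1) by Euclidean distance over the 4 ratios. The fit was tested on simulated arrays, where 0.038% of 23904 unchanged probes were called. Nearly all of the 24104 simulated probes were unchanged, so few of them could pass the adjusted threshold. The value does not give the share of false calls in the real data. The files name no genome build, so no gene coordinates are given beyond RefSeq's promoters (GRCm38.p6). Probe and protein sequences were not used here.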

Additional observations from a re-analysis of the deposited data

How the results depend on the processing

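Of the 11 AP-1 probes, Fos, both Junb probes and Atf3 kept their direction and their call under all 18 alternatives, with log2 ratios of 1.28 to 2.00 for Fos, 1.10 to 2.64 and 0.74 to 2.39 for Junb and 0.24 to 0.82 for Atf3. Batf lost its call in 11 of them and Jun in 7, while Jund gained one in 7. The 18 are not separate checks. The software's ratio and the deposited series ratio are nearly the same values. Changes of the filter on dim probes, of the prior or of the blocking left each log2 ratio as it was and could move only the call. Median centring reversed Fosl1 (0.23, adjusted p = 0.00182 in limma), the dimmer Fosl2 probe (0.0074, adjusted p = 0.909) and Jund (1.09, adjusted p = 3.65e-08), and among the other named genes Mafg (0.310), Mafk (0.344), Map3k5 (0.106), Nfatc3 (0.321), Stat3 (0.365), Zfp36l2 (0.0324), Dnajc17 (0.168), Lztr1 (0.761) and Rbm42 (0.696). It left 0 AP-1 probes lower (0 also at an unadjusted p under 0.05 in limma) and gave 64 list genes higher and 1 lower, against 16 and 22. The cause of these shifts was not tested. Over the 28 other named genes and all alternatives, 469 of 503 log2 ratios kept direction and call, 25 lost the call and 9 reversed, all 9 with median centring. Within slide 1, 14 list genes were lower. The number of AP-1 probes called higher, 8, was 4 within slide 1, where 0 were called lower (1 at an unadjusted p under 0.05 in limma). The number called lower, 1, was 3 with the software's ratio and 3 with the deposited series ratio (Fosl1, Jund and the dimmer Fosl2 probe), and 2 with an offset of 0, with scale normalization, with a trended and robust prior and with slide as a block (Fosl1 and Jund). Normexp fitted on all spots, added after seeing the data, called 7 higher and 1 lower (Jund at -0.21, adjusted p = 0.0449), with Fos at 1.28, Fosl1 at -0.15 (adjusted p = 0.0621) and over all probes 4358 higher and 3869 lower, against 5904 and 5766. Leaving out 1 replicate gave 6 to 7 higher and 1 lower each time. With no replicate block, that is with the channels taken as unpaired samples, 6 were higher and 1 lower, and Jun (adjusted p = 0.163) and Batf (adjusted p = 0.0873) lost their calls. Dim probes, such as the Fosb probe and the dimmer Fosl2 probe, have ratios that the background correction can shrink.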
